A study of Homo sapiens with 6 samples.

Results

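Feedback inhibitors of the mitogen-activated protein kinase (MAPK) pathway, 10 genes in all, were followed across 6 microarrays of Du145 cells, an established human prostate carcinoma line. They are the dual-specificity phosphatase genes DUSP1, DUSP4, DUSP5, DUSP6 and DUSP10, the Sprouty genes SPRY2 and SPRY4, the Sprouty-related genes SPRED1 and SPRED2, and the G protein regulator RGS2. The genes were chosen by symbol, with 1 probe set each, and all 10 were among the 18417 genes tested. The arrays form 3 groups of 2: infected cells described by the labels as adapted (shTSC2-adapted), cells carrying a TSC2 knockdown lentivirus (shTSC2), and control cells. All groups grew in high-glucose medium with 10% serum and had been at 1% oxygen, with RNA taken after 24 h of hypoxia. TSC2 is a tumour suppressor that, with TSC1, restrains the growth kinase complex mTORC1. The labels say neither what the adaptation was nor whether control cells received a virus, so that effects of infection and of lower TSC2 cannot be told apart. Whether the arrays of a group came from separate cultures is not stated either, and p-values may then reflect technical spread alone.

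MAPK cascades carry signals from receptors to the nucleus through the kinases ERK, JNK and p38. Many of their own inhibitors are transcribed in response to the signal, so that the pathway restrains itself. The DUSP proteins remove the activating phosphates from the kinases: DUSP6 acts on ERK in the cytoplasm, DUSP5 on ERK in the nucleus, DUSP1 and DUSP4 on several MAPKs in the nucleus, and DUSP10 mainly on JNK and p38. Sprouty and SPRED proteins act upstream, between receptor and RAF, and SPRED1 brings the RAS inactivator neurofibromin to the membrane. RGS2 switches off Gq-coupled receptors by speeding up GTP hydrolysis on the G protein.

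The start regions of the 4 members with the largest changes after knockdown are shown so that the elements in them can be compared (RefSeq, GRCh38.p14). Each runs 5′ to 3′ over 200 bases, from 190 before the annotated gene start to 10 after it. Capitals mark TGACG on either strand (read as CGTCA on the other), the core of the cyclic AMP response element (CRE), and the full element TGACGTCA, in which 2 cores overlap. For DUSP10, whose table has 2 starts, the one with a core is shown.
RGS2 (chr1:192808849-192809048, plus strand): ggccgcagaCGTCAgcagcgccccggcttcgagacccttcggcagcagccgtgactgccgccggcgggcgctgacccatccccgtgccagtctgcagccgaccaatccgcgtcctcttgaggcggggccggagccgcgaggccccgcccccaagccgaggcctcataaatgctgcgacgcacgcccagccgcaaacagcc
SPRY4 (chr5:142324238-142324437, minus strand): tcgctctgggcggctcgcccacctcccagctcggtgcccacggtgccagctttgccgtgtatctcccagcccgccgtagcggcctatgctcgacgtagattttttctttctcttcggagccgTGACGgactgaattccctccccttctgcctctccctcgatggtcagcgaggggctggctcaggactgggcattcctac
DUSP10 (chr1:221736891-221737090, minus strand): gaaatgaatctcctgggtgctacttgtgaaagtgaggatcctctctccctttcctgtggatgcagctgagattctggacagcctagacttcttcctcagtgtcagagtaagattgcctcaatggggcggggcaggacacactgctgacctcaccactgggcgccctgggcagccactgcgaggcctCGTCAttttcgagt
DUSP1 (chr5:172771186-172771385, minus strand): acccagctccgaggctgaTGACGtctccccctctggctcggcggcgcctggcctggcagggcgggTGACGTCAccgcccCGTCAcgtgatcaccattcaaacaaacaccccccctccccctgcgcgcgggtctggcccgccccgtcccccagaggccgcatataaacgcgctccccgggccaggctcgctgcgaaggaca
In these stretches RGS2, SPRY4 and DUSP10 hold 1 core each, at -181, -68 and -4 from the gene start, and DUSP1 holds the full element at -125 with further cores at -172 and -111. Promoters of 8 members were in the table, with 12 starts in all, and cores lay within 250 bases before to 50 after 6 of the 12 starts, against 24.6% of all 35116 promoters. The full element was in the DUSP1 promoter alone among the 12, and in 1.85% of all promoters. The AP-1 motif TGACTCA was at 1 of the 12 starts, in SPRED2 (4.95% of all promoters). The ETS motif CCGGAAGT and the serum response element (CArG box) were at 0 of 12, against 4.14% and 1.29% of all promoters. These matches on both strands describe letters in a window, not binding.

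The targeted gene went with its labels. TSC2 had log2 intensities of 6.54 and 6.48 in shTSC2-adapted cells, 6.67 and 6.55 in shTSC2 cells, and 7.52 and 7.59 in control cells. Its level was 48.5% of control in shTSC2-adapted cells (adjusted p = 0.0241, lost without any single array of those groups, 0.0973 to 0.386) and 51.9% in shTSC2 cells (adjusted p = 0.00102, limma over all genes, n = 2 arrays a group). Median intensities of the arrays were 58.1 to 63.1 on a linear scale. Among 5 epithelial markers, KRT8 and KRT18 did not pass in any comparison. KRT19 (-1.38, adjusted p = 0.00664) and EPCAM (-1.285, adjusted p = 0.0271) fell in shTSC2 against control, and both, with CDH1, were higher in shTSC2-adapted than in shTSC2. Of 5 lymphoid and myeloid markers tested, FCER1G and CD68 rose in shTSC2. Summed intensities of the 5 were 361 to 385 in shTSC2-adapted, 466 to 486 in shTSC2 and 331 to 339 in control cells. Mean levels of 3 of the 5, PTPRC and FCER1G among them, lay below the lower quartile of all genes. Of 5 markers listed for embryonic kidney packaging lines, PAX2 and NEFM rose in shTSC2. Sums of the 5 were 905 to 997, 1014 to 1075 and 858.5 in the same order of groups. Of 5 neuroendocrine markers none passed, with sums of 1022 to 1090, 1183 to 1198 and 974 to 1003, and none passed of 2 luminal prostate, 4 endothelial and 4 fibroblast markers tested, all 4 endothelial ones below the lower quartile. The part of these in the results below was not tested.

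In shTSC2 cells the feedback genes split in 2 directions. RGS2, SPRY4 and DUSP10 rose, and DUSP1, SPRED1 and SPRED2 fell, while SPRY2, DUSP4, DUSP5 and DUSP6 did not pass. That is 6 of 10 members, against 20.8% of all genes, with 3 higher (6.87% of all genes) and 3 lower (13.9%). Without control 1 the counts were 4 members and 1484 genes, and without control 2 they were 3 members and 1175 genes, against 3833 genes with all arrays. The median change of the 10 was 0.31, against 0.025 over all genes, and the median size of change without regard to sign was 0.52 against 0.18. The members were chosen with earlier results of these data known, so these counts describe them and test nothing about the set. All changes below are differences of mean log2 intensity (first group named minus the second) with their standard error (SE), and adjusted p-values are from limma, two-sided, over 18417 genes, with a threshold of 0.05.

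In shTSC2-adapted cells no member passed against control, and several differed from shTSC2. Against shTSC2, 5 of 10 members passed, against 12.5% of all genes: DUSP1 and SPRED1 were higher (9.25% of all genes), and RGS2, DUSP10 and SPRY4 were lower (3.24%). Fewer passed without any single array except shTSC2 2. Without that array DUSP1 dropped out and SPRY2 came in, with changes of 0.555 and -0.59. Against control, 0 of 10 passed by limma, where 0.261% of all genes did, and 3 of 10 (SPRY2, SPRY4 and DUSP5) had an unadjusted p under 0.05, as had 12.6% of all genes. The comparisons share arrays: both comparisons with control use the same control arrays, and the direct comparison of the knockdown groups reuses their arrays. It is the test of whether the changes from control differ between the knockdown groups.

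**Figure D1:**
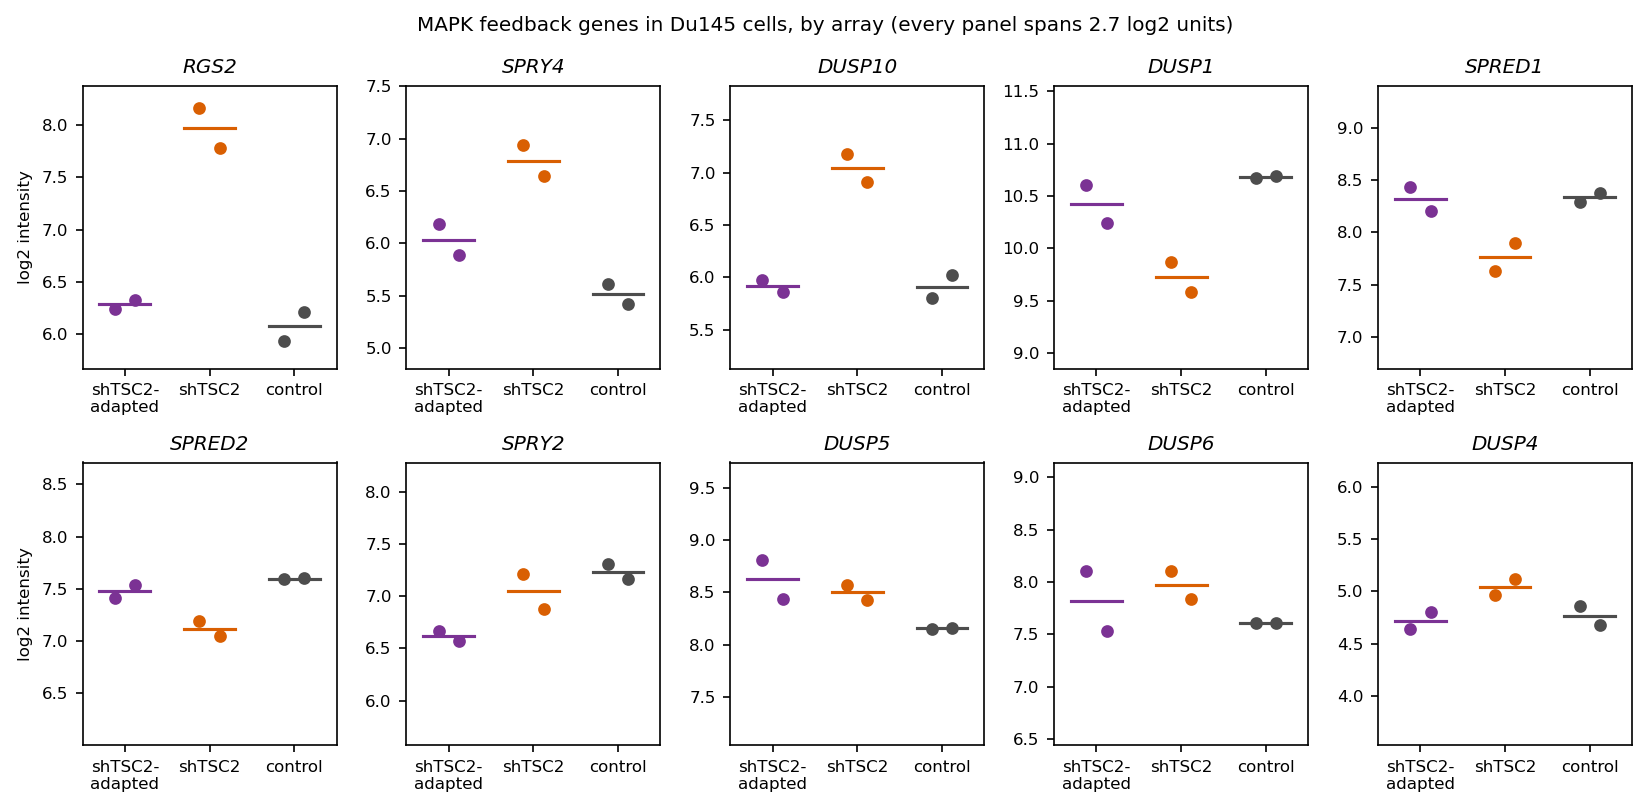
Log2 intensity of each feedback gene (y axis) on the 2 arrays of each group (x axis: shTSC2-adapted, shTSC2, control), with each point 1 array and each bar the group mean. RGS2, SPRY4 and DUSP10 were highest on both shTSC2 arrays and DUSP1, SPRED1 and SPRED2 lowest there, whereas SPRY2 was lowest on both shTSC2-adapted arrays; panels have their own y range, since levels of different probe sets are not comparable.

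RGS2 had the largest change of the set. Its log2 intensity was 6.24 and 6.33 in shTSC2-adapted cells, 8.16 and 7.78 in shTSC2 cells, and 5.94 and 6.21 in control cells. The shTSC2 arrays stood above all 4 others, and the shTSC2-adapted arrays lay just above the control arrays. In shTSC2 against control RGS2 rose by 1.895 (SE 0.15, adjusted p = 0.000540), a level 3.72-fold that of control (95% interval 2.91 to 4.76), and 15 of the 18417 genes rose by more. In shTSC2-adapted it was lower than in shTSC2 by 3.22-fold (change -1.685, SE 0.15, adjusted p = 0.00187), and 9 genes fell by more. Against control the difference in shTSC2-adapted cells was 0.21 (95% interval -0.15 to 0.57, adjusted p = 0.660). Both calls held in all 14 alternative settings, with adjusted p of at most 0.0133 and 0.0237.

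Genes of G proteins and of effectors below them were followed as a list of 10, not all of them known targets of RGS2. Of these, 2 fell and 0 rose in shTSC2 against control, near the 13.9% and 6.87% of all genes, around a median of -0.075 (0.025 over all genes). GNAQ, the alpha subunit of Gq, had log2 intensities of 10.36 and 10.49 in shTSC2-adapted, 9.69 and 9.91 in shTSC2 and 10.80 and 10.85 in control cells, and fell by 1.025 in shTSC2 (adjusted p = 0.00124). PLCB1, a phospholipase driven by Gq, stood at -0.735 (adjusted p = 0.00496; 0.0642 without control 2), and at -0.49 once the trend with gene span was taken out (adjusted p = 0.0412). PLCB1 was dim, at 4.70 and 4.76 in shTSC2-adapted, 4.34 and 4.13 in shTSC2, and 4.87 and 5.07 in control cells. The lower quartile of all probe sets was 4.33. Of the 10, GNAQ and PLCB1 were higher in shTSC2-adapted than in shTSC2, against 9.25% of all genes (0.625 and 0.495, adjusted p = 0.0131 and 0.0342). The first of these calls ended without shTSC2-adapted 1 (0.0507) or 2 (0.0717). The second ended without either control (0.0725), shTSC2 2 (0.0900), shTSC2-adapted 1 (0.119) or shTSC2-adapted 2 (0.135), under the replicate block (0.0558) and with the gene length trend removed (0.209).

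Among the phosphatases, DUSP10 and DUSP1 moved in opposite directions. DUSP10, which acts mainly on JNK and p38, was at 5.97 and 5.86 in shTSC2-adapted, 7.18 and 6.91 in shTSC2, and 5.80 and 6.02 in control cells. Its shTSC2 arrays stood apart, while the shTSC2-adapted and control arrays overlapped. DUSP10 rose 2.20-fold in shTSC2 (change 1.135, SE 0.13, adjusted p = 0.00150) and was 2.19-fold lower in shTSC2-adapted than in shTSC2 (change -1.13, SE 0.13, adjusted p = 0.00343). Its difference between shTSC2-adapted and control was 0.005 (95% interval -0.30 to 0.31), with a sign that turned with the scaling (-0.04 with quantile normalization or median centring). Its 2 calls held in the 13 settings that gave a value.

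DUSP1, an immediate early phosphatase of p38, JNK and ERK, was at 10.61 and 10.24 in shTSC2-adapted, 9.87 and 9.58 in shTSC2, and 10.67 and 10.69 in control cells. Both shTSC2 arrays were the lowest, and the shTSC2-adapted arrays lay between them and the controls, 1 of them close to control. In shTSC2 it fell to 51.6% of control (change -0.955, SE 0.15, adjusted p = 0.00480), and without control 2 it did not pass (0.0544). In shTSC2-adapted it was 1.62-fold higher than in shTSC2 (change 0.70, SE 0.15, adjusted p = 0.0251), and stood at -0.255 against control (95% interval -0.61 to 0.10, adjusted p = 0.572), between -0.44 without shTSC2-adapted 1 and -0.07 without shTSC2-adapted 2. The difference between the knockdown groups did not pass without either control or with only the 4 arrays compared (0.0706), without shTSC2 2 (0.0698) or without shTSC2-adapted 1 (0.123).

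The other phosphatases did not pass in any comparison. DUSP5 was at 8.81 and 8.44 in shTSC2-adapted, 8.57 and 8.43 in shTSC2, and 8.15 and 8.16 in control cells, so that all 4 knockdown arrays exceeded both controls. Its differences from control were 0.47 in shTSC2-adapted (95% interval 0.15 to 0.79, adjusted p = 0.201) and 0.345 in shTSC2 (0.03 to 0.66, adjusted p = 0.121), and the first was 0.285 without shTSC2-adapted 1. DUSP6 was at 8.11 and 7.53 in shTSC2-adapted, 8.11 and 7.84 in shTSC2, and 7.61 and 7.61 in control cells. Its shTSC2-adapted arrays lay on both sides of control, 0.58 apart, the widest gap between arrays of a group among the 10 members. Its differences from control were 0.21 in shTSC2-adapted (95% interval -0.23 to 0.65) and 0.365 in shTSC2 (-0.08 to 0.81), the second of which was 0.23 without shTSC2 1 and 0.22 with the gene length trend removed. DUSP4, which acts on ERK and JNK, was at 4.64 and 4.80 in shTSC2-adapted, 4.97 and 5.12 in shTSC2, and 4.86 and 4.68 in control cells. Its intensities on all 6 arrays lay below the median log2 intensity of all probe sets (5.91). Its difference in shTSC2 was 0.275 (95% interval 0.01 to 0.54, adjusted p = 0.142), and 0.17 with quantile normalization.

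The Sprouty genes differed from each other. SPRY4 was at 6.18 and 5.89 in shTSC2-adapted, 6.94 and 6.64 in shTSC2, and 5.61 and 5.42 in control cells, so that the groups formed 3 separate levels with shTSC2-adapted in between. It rose 2.42-fold in shTSC2 (change 1.275, SE 0.15, adjusted p = 0.00158) and was lower in shTSC2-adapted than in shTSC2 (change -0.755, SE 0.15, adjusted p = 0.0185). The second call ended without shTSC2 1 (0.0511) or shTSC2-adapted 2 (0.0945). Against control, shTSC2-adapted stood at 0.52 (95% interval 0.17 to 0.87, adjusted p = 0.196).

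SPRY2 was at 6.67 and 6.57 in shTSC2-adapted, 7.21 and 6.88 in shTSC2, and 7.31 and 7.16 in control cells. Here the shTSC2-adapted arrays were the lowest, and the shTSC2 and control arrays overlapped. Its difference from control was -0.615 in shTSC2-adapted (95% interval -0.92 to -0.31, adjusted p = 0.114) and -0.19 in shTSC2 (-0.50 to 0.12, adjusted p = 0.363). The difference in shTSC2-adapted passed with median centring (0.0451), and with only the 4 arrays compared or without either shTSC2 array (0.0442). Against shTSC2 it was -0.425 (adjusted p = 0.0817), which passed with quantile normalization (0.0420) and without shTSC2 2 (0.0229), and was -0.26 without shTSC2 1.

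Both SPRED genes fell in shTSC2. SPRED1 was at 8.43 and 8.21 in shTSC2-adapted, 7.63 and 7.90 in shTSC2, and 8.29 and 8.38 in control cells, with overlap of shTSC2-adapted and control. SPRED2, which also inhibits RAS-ERK signalling, was at 7.41 and 7.54 in shTSC2-adapted, 7.19 and 7.05 in shTSC2, and 7.59 and 7.60 in control cells, with the shTSC2 arrays lowest. In shTSC2 SPRED1 fell to 67.4% of control (change -0.57, SE 0.13, adjusted p = 0.0194) and SPRED2 to 71.9% (change -0.475, SE 0.10, adjusted p = 0.0156). In shTSC2-adapted against shTSC2, SPRED1 was higher (0.555, SE 0.13, adjusted p = 0.0322), and SPRED2 stood at 0.355 (95% interval 0.12 to 0.59, adjusted p = 0.0632), or 0.20 once the trend with gene span was taken out. Against control the differences in shTSC2-adapted were -0.015 (95% interval -0.32 to 0.29) and -0.12 (-0.36 to 0.12).

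These are the 2 longest genes of the set, spanning 104 and 125 kb, against 3.1 to 40.7 kb for the other members and a median of 24.5 kb over 18386 genes. Across those genes, which are not independent, the change in shTSC2 against control ran down with the span (Spearman rho -0.33), and the change in shTSC2-adapted against shTSC2 ran up (0.32). With that trend removed, SPRED1 stood at -0.40 (adjusted p = 0.0549) and SPRED2 at -0.28 (0.111) in shTSC2, whereas RGS2, SPRY4, DUSP10 and DUSP1 kept their calls. The SPRED1 call in shTSC2 also ended without control 1 (0.0980), control 2 (0.150) or shTSC2 1 (0.0584), and the SPRED2 call without control 1 (0.109) or control 2 (0.122). The rise of SPRED1 in shTSC2-adapted over shTSC2 ended in 9 of 14 settings. Among them were the replicate block and each left-out array except shTSC2 2, with adjusted p of at most 0.164.

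**Figure D2:**
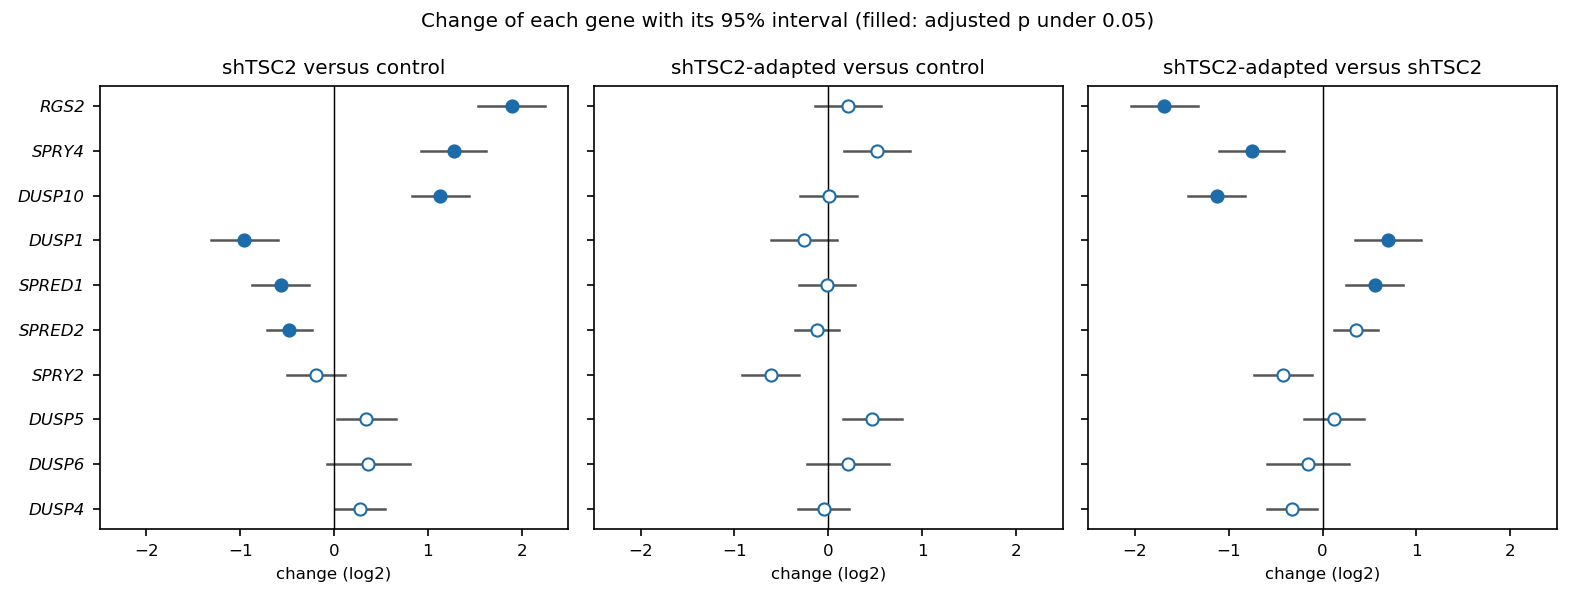
Change of each feedback gene (x axis, difference of mean log2 intensity) in 3 comparisons, with its 95% interval from limma, filled where the adjusted p was under 0.05. RGS2 stands at 1.895 in shTSC2 against control, at 0.21 in shTSC2-adapted against control and at -1.685 in shTSC2-adapted against shTSC2; SPRY2 stands at -0.19, -0.615 and -0.425.

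Other MAPK genes were taken from lists chosen with earlier results known. Of 8 further MAPK phosphatase genes, 3 rose and 0 fell in shTSC2 against control (6.87% and 13.9% of all genes), with a median of 0.345. Against shTSC2, 2 were lower in shTSC2-adapted and 0 were higher (3.24% and 9.25% of all genes), with a median of -0.23. The largest rises were in DUSP14 (0.46, adjusted p = 0.0170), an atypical phosphatase, and DUSP8 (0.445, adjusted p = 0.02004), a phosphatase of JNK and p38. Both rises were lost with median centring (0.0524 and 0.0501), without control 1 (0.0606 and 0.172) and without control 2 (0.161 and 0.0661). DUSP2, a nuclear MAPK phosphatase (-0.405, adjusted p = 0.0306), and DUSP8 (-0.385, adjusted p = 0.0489) were lower in shTSC2-adapted than in shTSC2. Leaving out any single array ended both of these calls, with adjusted p between 0.0506 and 0.160. Median centring (0.0692 for DUSP2, 0.0806 for DUSP8) and removal of the gene length trend (0.106 and 0.0809) ended both too. The DUSP8 call was lost in 12 of 14 settings, among them the replicate block (0.0689) and the test of every probe set (0.0515).

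Of 13 other Sprouty, SPRED and RGS genes and EGF receptor inhibitors, 1 rose and 2 fell in shTSC2 (median 0.005), close to the 6.87% and 13.9% of all genes. Between the knockdown groups, 1 was lower in shTSC2-adapted and 0 were higher (median -0.005), where 3.24% and 9.25% of all genes were. RGS16, a relative of RGS2 that also acts on Gi and Gq proteins, was at 6.10 and 5.90 in shTSC2-adapted, 6.50 and 6.37 in shTSC2, and 5.90 and 5.83 in control cells. It rose by 0.57 (adjusted p = 0.0103; 0.0705 without control 1 and 0.102 without control 2) and was lower in shTSC2-adapted than in shTSC2 (-0.435, adjusted p = 0.0418). The second call was lost without any single array except shTSC2 2 (0.0699 to 0.171) and with the gene length trend removed (0.118). LRIG1, an inhibitor of EGF receptor family members, fell by 0.645 in shTSC2 (adjusted p = 0.00454; 0.0582 without control 2). RGS3 stood at -0.39 (adjusted p = 0.0465) and lost its call without any single array except shTSC2 1 (0.0656 to 0.223), under the replicate block (0.0683) and with the gene length trend removed (-0.18, 0.349).

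Genes of the kinase cascade itself were followed from receptor to ERK. Of 14 genes tested, of 20 listed, 6 fell and 0 rose in shTSC2 against control (13.9% and 6.87% of all genes), with a median of -0.27. Set against shTSC2, shTSC2-adapted cells had 4 that were higher and 0 lower (9.25% and 3.24% of all genes), with a median of 0.19. GAB1, a docking protein below receptor kinases, was at 7.37 and 7.14 in shTSC2-adapted, 6.50 and 6.46 in shTSC2, and 7.72 and 7.70 in control cells, a change of -1.23 in shTSC2 (adjusted p = 0.000648). SOS1, the exchange factor that loads RAS with GTP, fell by 1.09 in shTSC2 (adjusted p = 0.00162) and was higher by 1.01 in shTSC2-adapted than in shTSC2 (adjusted p = 0.00428). NF1, which encodes the neurofibromin that SPRED1 recruits, was higher by 0.89 in shTSC2-adapted than in shTSC2 (adjusted p = 0.0213), which did not pass without either control (0.0608), shTSC2-adapted 1 (0.0930) or shTSC2-adapted 2 (0.101). Without shTSC2 1 the NF1 change was 0.59. Log2 intensities of NF1 were 8.87 and 8.95 in shTSC2-adapted, 7.72 and 8.32 in shTSC2, and 8.95 and 9.01 in control cells. Against control NF1 thus stood at -0.96 in shTSC2 and at -0.07 in shTSC2-adapted. GAB1, SOS1 and NF1 span 138, 143 and 283 kb, and the calls given here held with the gene length trend removed. The others that fell in shTSC2 were GRB2 and SOS2, spanning 87.6 and 115 kb, and ARAF, spanning 10.7 kb. The median over all genes was 24.5 kb, and the part of the span trend in the counts of this list was not tested.

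Of 15 listed genes of the JNK and p38 cascade, 13 were tested, without MAP2K7 and MAPK14. Of the 13, 4 fell and 1 rose in shTSC2 (13.9% and 6.87% of all genes), with a median of -0.115. In shTSC2-adapted against shTSC2, 6 were higher and 0 lower (9.25% and 3.24% of all genes), with a median of 0.245. MAPK8, which encodes JNK1, was at 8.60 and 8.66 in shTSC2-adapted, 7.71 and 8.03 in shTSC2, and 8.71 and 8.76 in control cells. MAPK13, a p38 isoform, was at 7.30 and 7.32 in shTSC2-adapted, 6.62 and 6.51 in shTSC2, and 7.48 and 7.54 in control cells. For both, the shTSC2 arrays were below all others, with changes of -0.865 (MAPK8, adjusted p = 0.00320) and -0.945 (MAPK13, adjusted p = 0.000959) against control. In shTSC2-adapted against shTSC2 they were higher by 0.76 and 0.745 (adjusted p = 0.00956 and 0.00425), and the MAPK8 call ended without shTSC2-adapted 1 (0.0529) or 2 (0.0550). MAP2K3, a kinase that activates p38, rose by 0.85 in shTSC2 (adjusted p = 0.00948). Without control 2 its rise was 0.72 and the call ended. Of the genes that fell, MAP2K4 and MAPK8 span 123 and 133 kb, and MAPK13 and MAPKAPK2 span 14.0 and 49.4 kb. The part of the span trend in these counts was not tested either.

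Other transcripts that ERK signalling is known to induce were also listed, together with ELK1 and ELK3. Of the 24 listed, 22 were tested. Of these, 7 rose, 1 fell and 14 did not pass in shTSC2 (6.87% of all genes rose and 13.9% fell), with a median of 0.27. In shTSC2-adapted against shTSC2, 6 were lower and 0 higher (3.24% and 9.25% of all genes), with a median of -0.14. EREG, an EGF receptor ligand, was at 8.67 and 7.82 in shTSC2-adapted, 9.23 and 9.26 in shTSC2, and 7.27 and 7.34 in control cells, a rise of 1.94 in shTSC2 (adjusted p = 0.00188). FOS, an AP-1 subunit, was at 7.04 and 6.24 in shTSC2-adapted, 9.35 and 7.93 in shTSC2, and 6.26 and 6.39 in control cells, with the shTSC2 arrays far apart from each other. Its rise of 2.315 (adjusted p = 0.00948) ended without control 1 (0.0761) or control 2 (0.0710). In shTSC2-adapted FOS was lower than in shTSC2 (change -2.0, adjusted p = 0.0259), which did not pass without either control (0.0676), shTSC2-adapted 1 (0.0608) or shTSC2-adapted 2 (0.134). Without shTSC2 1 the FOS change was -1.29. FOSB, a relative of FOS, was also lower in shTSC2-adapted than in shTSC2 (change -1.29, adjusted p = 0.00291). Against control FOSB stood at 1.51 in shTSC2 and at 0.22 in shTSC2-adapted. TGFA, another EGF receptor ligand, fell by 0.595 in shTSC2 (adjusted p = 0.0160), which was lost without control 1 (0.126), without shTSC2 2 (0.0527) and with the gene length trend removed (0.0665). Across the 6 lists, 0 of 80 genes passed in shTSC2-adapted against control by limma (0.261% of all genes). There 12 of 80, or 15%, had an unadjusted p under 0.05, close to the 12.6% of all genes. The lists differed, from 0 of 8 for the further MAPK phosphatases to 6 of 22 (27.3%) for the ERK-induced list with ELK1 and ELK3.

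**Figure D3:**
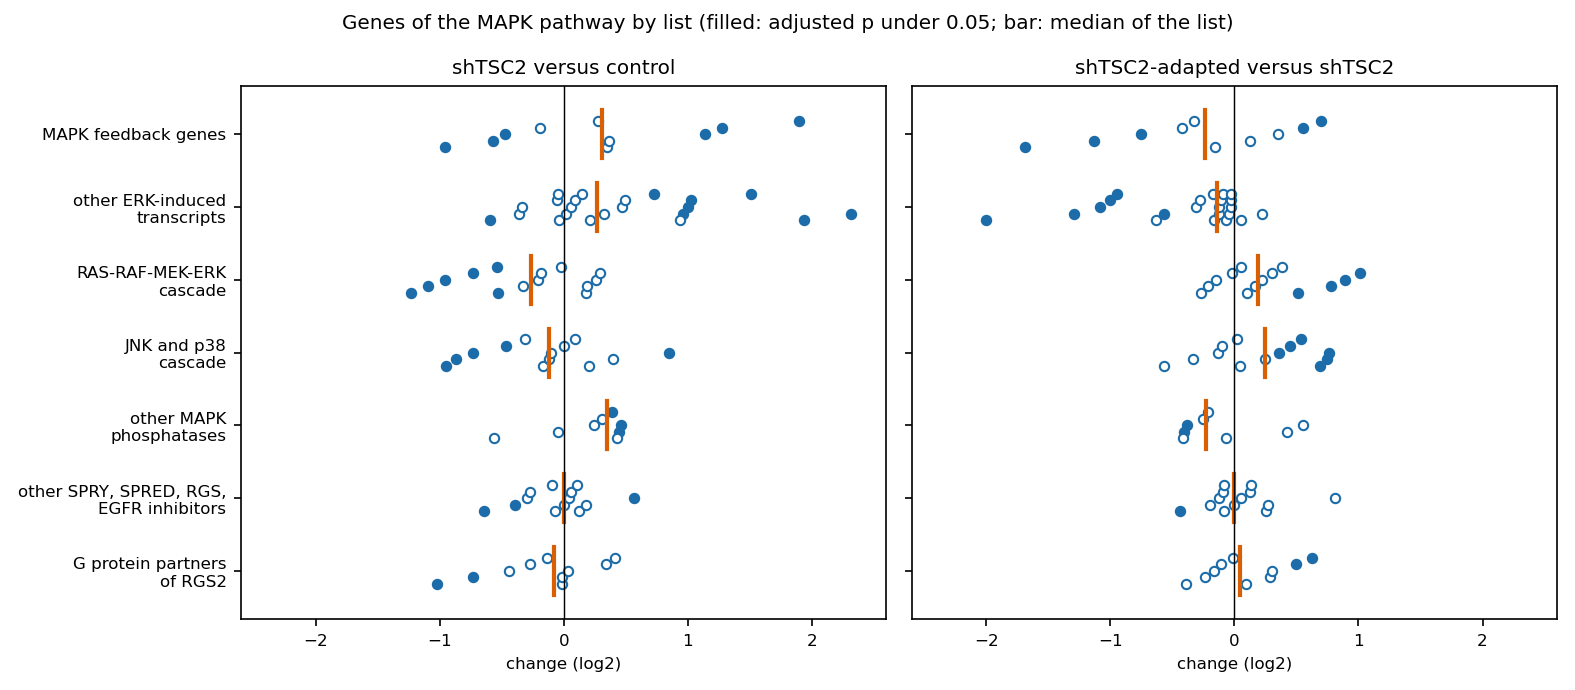
Change of every tested gene of 7 groups (x axis, difference of mean log2 intensity), filled where the adjusted p was under 0.05, with a bar at the median of the group. In shTSC2 against control the feedback genes spread from -0.955 to 1.895, and the RAS-RAF-MEK-ERK cascade has 6 filled points, all below 0.

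The genes most like the 3 members with the lowest p in shTSC2-adapted against shTSC2 were found by the root mean square difference of their centred log2 profiles over the 6 arrays. For RGS2 they were PTGS2 (0.117), the inducible prostaglandin synthase, TAP1 (0.147), a peptide transporter subunit, and PTGER4 (0.164), a prostaglandin receptor. For DUSP10 they were MYLIP (0.0637), a ubiquitin ligase for the LDL receptor, TMCO6 (0.0725) and CDADC1 (0.0846). For SPRY4 they were TAS2R3 (0.0857), a taste receptor gene, DNAJB9 (0.0988), a chaperone of the endoplasmic reticulum, and PSMC3IP (0.108). These distances are in log2 units, rank likeness among these arrays and carry no test.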

How the data were processed

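Expression was measured in 6 Du145 RNA samples, labelled with biotin from 100 ng of total RNA, per the labels' protocols. The authors deposited linear intensities, 1 for each probe set, made with RMA per the submitters' processing notes. RMA gives arrays a common distribution, which can hide shifts that most genes share. The RMA version, the probe definition and the build are not stated here. All log2 values were 2-decimal numbers (to 6.99e-10) and were used as such. Arrays have no read depth, and their number limits the precision.

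Of 33297 probe sets, 19460 carried 1 symbol in GEO's platform annotation, 1754 carried several, and 12083 stayed unnamed. The GRCh38.p14 gene table held the identifiers of 19429, with 0 symbols updated. The probe set with the highest mean was kept per gene, which left 18417 genes. Each member had 1 probe set.

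Groups came from the labels. Changes were tested with limma 3.58.1 (R 4.3.3; lmFit, contrasts.fit, eBayes) over the 3 groups of 2 arrays together, with Benjamini-Hochberg adjustment over 18417 genes and a threshold of 0.05. The model was also run on simulated arrays with 200 changed genes and independent noise on each array. Its recovery is not reported here, so the run says nothing about the counts above. The members, the 6 gene lists and the 7 marker lists were chosen with earlier results of these data known. Named genes were the members, TSC2, and per list and comparison (shTSC2 against control, shTSC2-adapted against shTSC2) at most the 2 largest rises and 2 largest falls that passed. KRT8, KRT18, KRT19, EPCAM, CDH1, FCER1G, CD68, PTPRC, PAX2 and NEFM, from the marker lists, were named after their values were seen. So were GRB2, SOS2, ARAF, MAP2K4, MAPKAPK2, ELK1 and ELK3, from the gene lists. The 3 most alike genes were sought among protein-coding genes other than the members. Uncharacterised, small RNA and olfactory receptor genes were left out, as were genes with FAM, KIAA or open reading frame names.

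Other settings tried were the replicate block, median centring, quantile normalization, leaving out genes below the median level, testing every probe set, only the 4 arrays compared, a mean-variance trend with robust eBayes, removing the trend with gene span (loess per array, over 18386 genes with a span), and leaving out each array.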

Additional observations from a re-analysis of the deposited data

How the results depend on the processing

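The rises of RGS2, SPRY4 and DUSP10 in shTSC2, and the lower RGS2 and DUSP10 in shTSC2-adapted than in shTSC2, passed under every alternative that gave a value. Leaving out 1 array gave 3 to 6 members that passed in shTSC2 against control, 0 to 1 in shTSC2-adapted against control and 3 to 5 in shTSC2-adapted against shTSC2. In shTSC2-adapted against control, 1 member (SPRY2) passed with median centring and 1 with only the 4 arrays compared. In shTSC2-adapted against shTSC2, 3 passed with only the 4 arrays compared, and 3 with genes below the median level left out, which also leaves out DUSP4, DUSP10 and SPRY4. Same-numbered arrays did not deviate together in every pair (correlations across genes of 0.21 for shTSC2-adapted with shTSC2, -0.19 for shTSC2-adapted with control and -0.10 for shTSC2 with control), so the numbers were not taken as a pairing. The replicate block gave 6, 0 and 4 members in the same order of comparisons, the lost call being SPRED1 (adjusted p = 0.05001). It also ended the call of TSC2 in shTSC2-adapted against control (0.0515), which ended too without control 1 (0.386), control 2 (0.372), shTSC2-adapted 1 (0.169) or shTSC2-adapted 2 (0.0973). Over all genes the counts were 3833, 48 and 2300, and 3536, 1 and 2064 under the replicate block. Leaving out control 1 gave 1484 genes in shTSC2 against control and leaving out control 2 gave 1175. In shTSC2-adapted against control the count was 94 with quantile normalization, 199 with median centring, 121 without dim genes and 248 with only the 4 arrays compared, and 0 without any 1 array of these 2 groups and 248 without either shTSC2 array. In shTSC2-adapted against shTSC2 it was 1113 with only the 4 arrays compared or without either control, 837 without shTSC2-adapted 1 and 1181 without shTSC2-adapted 2. Signs turned in uncalled differences only. In shTSC2-adapted against control, DUSP10 stood at -0.041 with quantile normalization and -0.04 with median centring, and SPRED1 at 0.017 with the gene length trend removed. Leaving out 1 array gave -0.14 to 0.04 for DUSP4, -0.08 to 0.50 for DUSP6, -0.105 to 0.115 for DUSP10 and -0.125 to 0.095 for SPRED1 there, and -0.06 to 0.31 for DUSP5 and -0.445 to 0.135 for DUSP6 in shTSC2-adapted against shTSC2. The causes were not tested. Without an array, the lone array of a group is assumed to vary like the others.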
